A study of Mus musculus with 9 samples.

Results

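Solute carriers are the largest family of membrane transporters in mammals, and their genes carry symbols that begin with Slc. Each family moves its own kind of cargo, such as amino acids, metals, nucleosides, lipids, organic anions or sugars, across the plasma membrane or the membrane of an organelle. In macrophages, carriers of the phagosome and lysosome export the metals, heme, nucleosides and amino acids that are set free when engulfed cells are digested. In dendritic cells, carriers at the surface and in endolysosomes supply glucose and amino acids, and some are part of innate sensing.

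The genes described here are those of the deposited table whose symbol begins with Slc and a digit, other than Slc2a1 and Slc16a3, and whose level reached 1 FPKM in at least 2 of the 9 libraries. FPKM counts fragments per length of transcript, scaled to the mapped fragments of the library, so levels of different genes can be set side by side. Of 24532 genes in the table, 372 met the symbol rule and 167 of these also met the level rule. The other 205 were removed, and 110 of them were listed at 0 in all 9 libraries while 95 had a value above 0 somewhere. Just inside the level rule lay Slc7a4 and Slc5a11, whose second-highest values were 1.11 and 1.15 FPKM, and just outside it lay Slc12a2 and Slc1a4 at 0.982 and 0.974. Among the 167 genes, 123 reached 1 FPKM in every library. Among them 4 carry an Slc symbol without being carriers (Slc9a3r1, Slc9a3r2, Slc4a1ap and Slc7a6os) and were kept as a class of their own.

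The cells were myeloid cells that carry class II molecules of the major histocompatibility complex (MHCII+), flushed from the peritoneal cavity of C57BL/6 mice 8 weeks after birth, sorted by CD11c, an integrin chain, and CD115, the Csf1r receptor. SPM (CD11c- CD115+) and P-IV.II (CD11c+ CD115+) are both labelled small peritoneal macrophages, and P-IV.I (CD11c+ CD115+) is labelled peritoneal dendritic cells, so P-IV.II and P-IV.I share 1 marker gate. PcDC2 and PcDC1 (both CD11c+ CD115-) are labelled type 2 and type 1 dendritic cells. Each group had 2 libraries except PcDC1, which had 1, and the sources used here do not say whether the libraries of a group came from separate animals or sorts, so a p-value here measures the spread between libraries, which may be technical. In bulk libraries of sorted cells, fewer cells of a type and less RNA per cell cannot be told apart.

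FPKM totals ranged from 439597 to 647385 per library, and the read depth is unknown. Between 153 and 159 of the 167 genes reached 1 FPKM in each of the 8 replicated libraries, against 135 in PcDC1. A gene that reached 1 FPKM in PcDC1 alone could not meet the level rule, so the rule favours groups with 2 libraries. A gene near 0 in the libraries of 1 label could meet the rule only through those of the other label. For such genes, among the Slc genes and all genes tested, the rule favoured the direction of the difference. Together the 167 genes made up between 0.502% and 0.906% of all FPKM. The labels were checked against 9 macrophage markers, which summed to 5162 and 7575 FPKM in SPM, 1591 and 1931 for P-IV.II, then 295 and 421 for P-IV.I, 46.6 and 67.4 for PcDC2 and 82.2 in PcDC1. Most of the sum in SPM and P-IV.II came from C1qa, C1qb and C1qc, and C1qb alone had 2241 and 3747 FPKM in SPM. In PcDC2 most of it came from Adgre1 and Timd4. All 9 were above 0 in SPM, P-IV.II and P-IV.I, while Mertk was at 0 in both PcDC2 libraries and Csf1r, Mertk, Folr2 and Lyve1 were at 0 in PcDC1. The 6 dendritic cell markers ran the other way, at 18.3 and 26.2 FPKM in SPM, 53.7 and 68.7 for P-IV.II, then 425 and 488 for P-IV.I, 622 and 858 for PcDC2 and 247 in PcDC1, with Kit at 0 in SPM replicate 1. The 5 markers of type 1 dendritic cells summed to 1777 FPKM in PcDC1 and to at most 160 elsewhere. Both marker sums thus moved with the differences between macrophage-labelled and dendritic-labelled libraries that follow, and their part in those differences was not tested. Csf1r, the gene of the sorting marker CD115, is among the 9, and Itgax, the gene of CD11c, is among the 6. Both sums therefore partly restate the sort where the gates differ. B cell markers lay between 13.2 and 45.3 FPKM in every library, T cell markers were at 16.3 and 20.6 in PcDC2 against at most 7.40 elsewhere, and the 5 neutrophil markers summed to under 1 FPKM everywhere. In PcDC1 the 5 erythroid markers summed to 26.2 FPKM, of which Hba-a1 gave 23.9, against at most 0.553 elsewhere, and the 5 mast cell markers summed to 10.7 against at most 3.97. Timd4, one of the macrophage markers, did not follow their sum, at 22.0 and 23.1 FPKM in SPM, 1.97 and 2.00 for P-IV.II, then 12.1 and 9.54 for P-IV.I, 18.7 and 23.2 for PcDC2 and 69.4 in PcDC1, where it made up most of the sum.

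The main comparison set the dendritic-labelled replicated groups (P-IV.I and PcDC2) against the macrophage-labelled groups (SPM and P-IV.II) on log2(FPKM + 1), a scale that understates the change of genes near 0. A difference is the mean of the first pair of groups minus the mean of the second, ± its standard error, with 2 libraries in each of the 4 groups. It was tested in limma over 10526 genes, and a gene passed at a Benjamini-Hochberg adjusted p under 0.05. Of the 167 Slc genes 34 were higher and 23 were lower in the dendritic-labelled groups. Over all genes tested 28.8% passed, 18.6% as higher and 10.3% as lower, and 34.1% of the Slc genes did. Where differences of at least 2 on the log2 scale were counted, 10 Slc genes passed, against 4.26% of all genes. Without overlap between the 4 libraries on either side, 37 Slc genes lay higher in the dendritic-labelled libraries, against 19.6% of all genes, and 20 lay higher in the macrophage-labelled ones, against 9.48%. The median of the Slc genes was -0.01, and that of all genes was 0.15.

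The split between higher and lower depended on scaling. Rescaling the libraries by median ratios moved the median of all genes from 0.15 to 0.03, with 27 Slc genes higher and 27 lower, and quantile normalization gave the same 27 and 27. Over all genes the counts moved from 1954 higher and 1082 lower to 1486 and 1417, and to 1436 and 1418. Removing each library's trend with transcript length gave 30 higher and 35 lower Slc genes, against 1526 and 1599 of 10430 genes. When each of the 8 replicated libraries was left out in turn, 24 of the 34 higher and 13 of the 23 lower genes passed every time. The count of lower genes was 15 without PcDC2 replicate 1 and 14 without PcDC2 replicate 2.

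**Figure D1:**
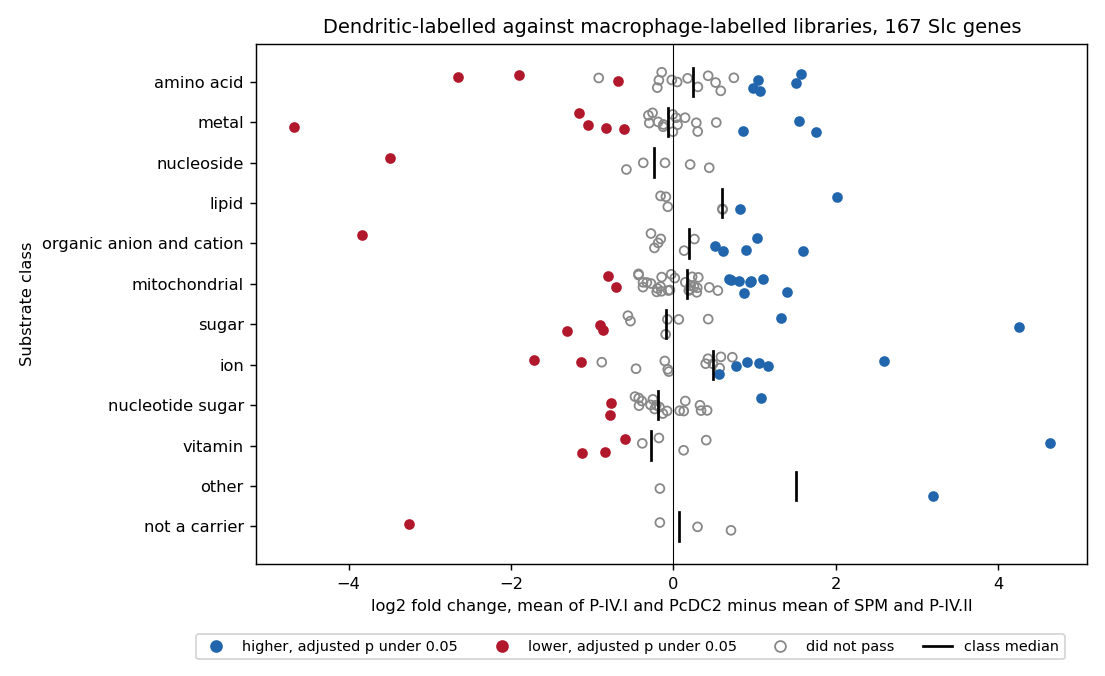
Differences of the 167 Slc genes by substrate class, as the log2 fold change of the mean of P-IV.I and PcDC2 minus the mean of SPM and P-IV.II; each point is a gene, filled where its adjusted p was under 0.05, and the bar is the class median. Passing genes lie on both sides in most classes, the lowest being Slc11a1 among the metal carriers and the highest Slc46a3 in the vitamin class.

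The counts by class stand against 18.6% of all genes as higher and 10.3% as lower, and no class was tested against that share. Of 20 amino acid carriers 5 were higher and 3 lower. Of 22 metal carriers 3 were higher and 5 lower. Of 36 mitochondrial carriers 8 were higher and 2 lower, and of 19 ion carriers 6 were higher and 2 lower. Among 12 organic anion and cation carriers 5 were higher and 1 lower. Sugar carriers, of which there were 11, had 2 higher and 3 lower, and nucleotide sugar carriers, with 20 genes, had 1 higher and 2 lower. In the small classes, 2 of 7 lipid carriers were higher, 1 of 6 nucleoside carriers was lower, and of 8 vitamin carriers 1 was higher and 3 were lower. Class medians ran from -0.28 for vitamin carriers to 0.60 for lipid carriers among the classes with more than 2 genes.

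A moderated F test over the 4 replicated groups passed 41 of the 167 genes, or 24.6%, against 18.4% of all genes tested. The heat map of these genes shows the macrophage-labelled libraries to the left and the dendritic-labelled ones to the right.

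**Figure D2:**
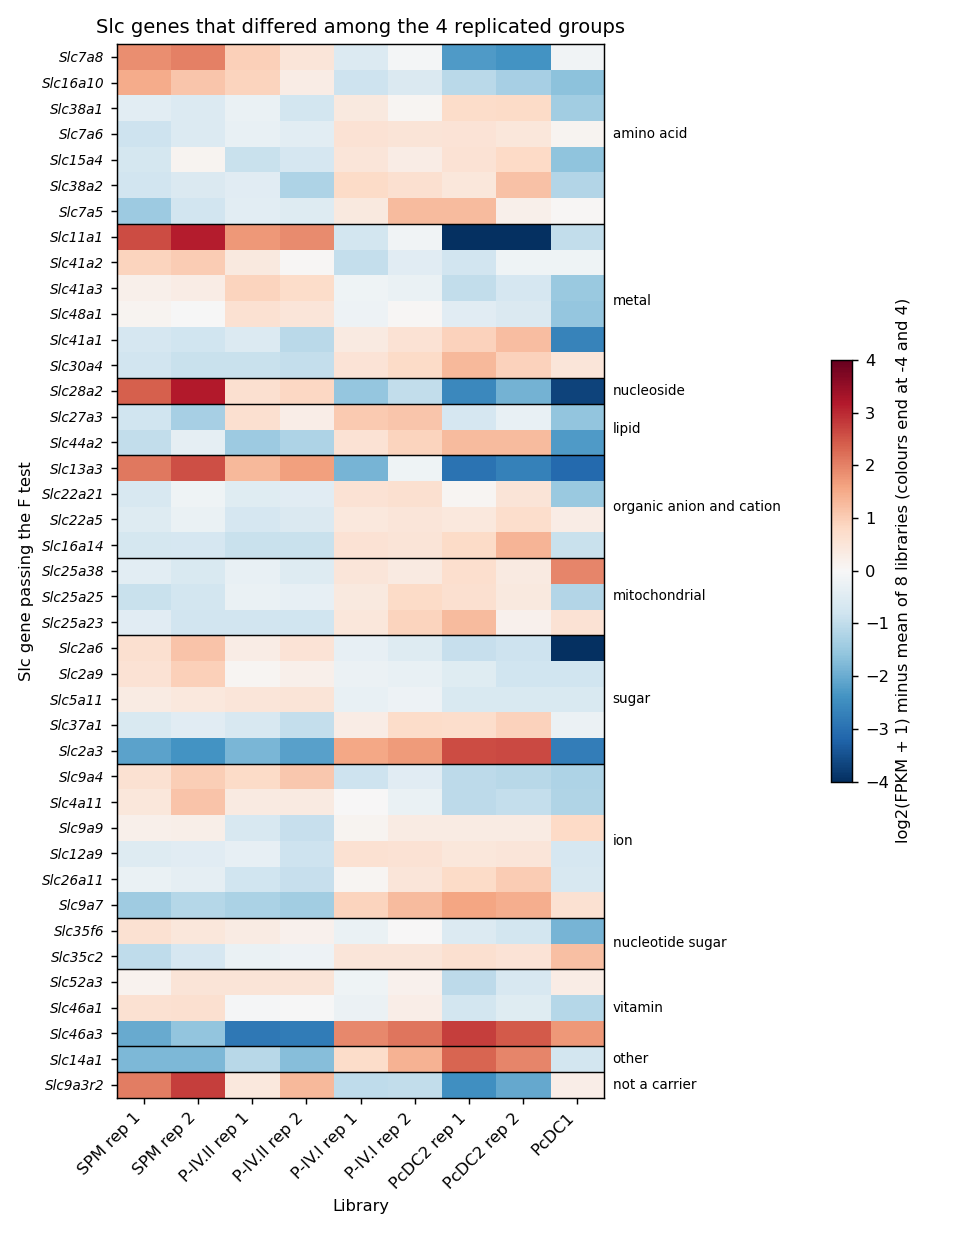
The 41 Slc genes that passed the F test, in rows grouped by substrate class, over the 9 libraries in columns; colour is log2(FPKM + 1) minus the gene's mean over the 8 replicated libraries, ending at -4 and 4. Slc11a1, Slc28a2, Slc13a3, Slc7a8 and Slc9a3r2 are red in SPM and blue in PcDC2, and Slc46a3, Slc2a3, Slc14a1 and Slc9a7 are the reverse.

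Metal carriers showed the lowest difference of any Slc gene. Slc11a1 (gene ID 18173, chromosome 1, 74375014 to 74386057, GRCm38.p6) encodes a pump that moves iron and manganese out of the phagosome, and the C57BL/6 strain is known to carry an allele whose protein does not work, so these are levels of the transcript. Its level was 172 and 249 FPKM in SPM and 93.1 and 105 for P-IV.II. It was 16.0 and 24.7 for P-IV.I, 0.520 and 0.553 for PcDC2 and 13.3 in PcDC1. Every macrophage-labelled library lay above every dendritic-labelled one, and both PcDC2 libraries lay far below PcDC1. The difference between dendritic-labelled and macrophage-labelled groups was -4.67 ± 0.20 log2 units (adjusted p = 6.00e-06), and it passed without any single library.

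Slc30a4, a zinc carrier of vesicles, was higher in the dendritic-labelled groups, with 0.761 and 0.624 FPKM in SPM, 0.628 and 0.541 for P-IV.II, then 3.39 and 4.09 for P-IV.I, 6.40 and 4.72 for PcDC2 and 3.25 in PcDC1. The 4 macrophage-labelled libraries were all under 1 FPKM, the groups did not overlap, and the difference was 1.76 ± 0.16 log2 units (adjusted p = 0.000159). Slc30a4 thus met the level rule only through dendritic-labelled libraries, and that rule favoured its direction. The magnesium carriers of the Slc41 family went both ways. Slc41a1, which exports magnesium at the plasma membrane, had 5.11 and 4.62 FPKM in SPM, 5.65 and 3.58 for P-IV.II, then 11.3 and 13.6 for P-IV.I, 17.4 and 21.6 for PcDC2 and 0.509 in PcDC1, a difference of 1.54 ± 0.19 log2 units (adjusted p = 0.000753) with no overlap between the replicated groups. Slc41a2 was lower in the dendritic-labelled groups at -1.17 ± 0.21 log2 units (adjusted p = 0.00487), with 5.60 and 6.19 FPKM in SPM, 3.72 and 2.67 for P-IV.II, then 0.848 and 1.61 for P-IV.I and 1.09 and 2.20 for PcDC2, again without overlap. Slc41a3, named here after its values were seen, was also lower at -1.06 ± 0.16 log2 units (adjusted p = 0.00200).

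By the mean of the 5 group means Slc48a1 and Slc39a7 ranked above Slc11a1, although in SPM Slc11a1 had the highest level of the 3. Slc48a1, which brings heme from digested red cells out of the phagolysosome, had 85.4 and 77.3 FPKM in SPM, 121 and 111 for P-IV.II, then 67.8 and 80.2 for P-IV.I, 56.7 and 51.9 for PcDC2 and 26.2 in PcDC1. Its dendritic-minus-macrophage difference of -0.61 ± 0.15 log2 units (adjusted p = 0.0206) no longer passed without P-IV.II replicate 1, P-IV.II replicate 2, P-IV.I replicate 1, PcDC2 replicate 1 or PcDC2 replicate 2, where the adjusted p reached 0.0919. Slc39a7, which releases zinc from the endoplasmic reticulum, lay between 61.9 and 109 FPKM in the 8 replicated libraries and did not pass, at -0.26 ± 0.18 log2 units (adjusted p = 0.321). The iron exporter Slc40a1, the zinc and iron importer Slc39a8 and the cystine importer Slc7a11 did not reach the level rule.

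Of 22 tested genes that store, move or break down iron, zinc and heme outside the Slc families, 2 were higher and 7 lower in the dendritic-labelled groups, against the 18.6% and 10.3% of all genes. Hmox1, the heme oxygenase, had 162 and 91.4 FPKM in SPM, 122 and 78.3 for P-IV.II, then 20.7 and 17.9 for P-IV.I, 1.65 and 2.06 for PcDC2 and 8.98 in PcDC1, and its difference was -3.86 ± 0.24 log2 units (adjusted p = 2.66e-05). Steap3, an endosomal iron reductase, differed by -3.93 ± 0.27 log2 units (adjusted p = 4.19e-05), and the biliverdin reductases Blvrb and Blvra by -2.43 ± 0.33 log2 units (adjusted p = 0.00110) and -1.39 ± 0.17 log2 units (adjusted p = 0.000638). Ftl1, the ferritin light chain, was also lower at -1.31 ± 0.23 log2 units (adjusted p = 0.00453). In PcDC1, which is not part of these differences, Steap3 had 0.180 FPKM, Blvrb 0.820 and Blvra 53.2. There Ftl1 had 7248 FPKM, above every other library. The transferrin receptor Tfrc was higher, at 1.38 ± 0.16 log2 units (adjusted p = 0.000456). Its 0.223 FPKM in PcDC1 lay below every other library. Over the replicated groups the 7 lower genes moved the same way as Slc11a1 and as the macrophage marker sum given above, and 13 of the 22 did not pass.

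Among nucleoside carriers, 1 gene of 6 passed. Slc28a2 (gene ID 269346, chromosome 2, 122426357 to 122461152) encodes a sodium-driven carrier that takes up purine nucleosides. It had 66.7 and 116 FPKM in SPM, 19.2 and 22.1 for P-IV.II, then 3.44 and 5.66 for P-IV.I and 1.18 and 2.55 for PcDC2, and it was listed at 0 in PcDC1. Levels were lower from group to group in that order, without overlap between any 2 of the groups. The dendritic-minus-macrophage difference was -3.49 ± 0.26 log2 units (adjusted p = 5.97e-05), and it passed without any single library. A neighbouring gene of like sequence, Gm14085, had at most 0.335 FPKM in the same table, and how reads shared by such copies were assigned is not given in the sources used here.

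Slc29a1, the equilibrative nucleoside carrier of the plasma membrane, had a level close to that of Slc28a2 in SPM and above it in PcDC2, with 64.0 and 90.0 FPKM in SPM, 66.1 and 91.7 for P-IV.II, then 54.7 and 67.5 for P-IV.I, 46.7 and 39.7 for PcDC2 and 14.0 in PcDC1. Its groups overlapped and it did not pass, at -0.58 ± 0.20 log2 units (adjusted p = 0.0602). With median-ratio rescaling Slc29a1 did pass, as lower in the dendritic-labelled groups. Slc29a3, the nucleoside carrier of lysosomes, ran from 12.3 to 20.0 FPKM in the 8 replicated libraries and was 1.61 in PcDC1. Among 15 tested genes of nucleoside use, 1 was higher and 4 were lower in the dendritic-labelled groups, where 18.6% and 10.3% of all genes were. Uck2, which phosphorylates uridine and cytidine, was higher by 2.33 ± 0.29 log2 units (adjusted p = 0.000787), and Adk, the adenosine kinase, was lower at -1.05 ± 0.20 log2 units (adjusted p = 0.00622). In PcDC1 Uck2 had 14.8 FPKM, and Adk had 56.9, above every other library.

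Slc13a3 (gene ID 114644, chromosome 2, 165405295 to 165473197) was the organic anion carrier with the largest difference. It encodes the high-affinity sodium dicarboxylate carrier, which takes up succinate and related acids. Its level was 46.4 and 64.4 FPKM in SPM, 26.0 and 33.2 for P-IV.II, then 2.01 and 8.58 for P-IV.I, 0.408 and 0.688 for PcDC2 and 0.268 in PcDC1. The P-IV.I libraries differed from each other by a larger ratio than those of any other group, yet no dendritic-labelled library reached the macrophage-labelled ones. The difference was -3.84 ± 0.35 log2 units (adjusted p = 0.000148), and it passed without any single library.

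The higher members of this class were at lower levels. Slc22a5, which takes up carnitine, had 4.30 and 5.29 FPKM in SPM, 3.80 and 4.07 for P-IV.II, then 9.22 and 9.79 for P-IV.I, 9.32 and 11.6 for PcDC2 and 8.33 in PcDC1, and differed by 1.03 ± 0.17 log2 units (adjusted p = 0.00284) without overlap between the replicated groups. Its neighbours Slc22a21 and Slc22a4 are close paralogs on chromosome 11, and the assignment of shared reads is not stated. Slc16a14, an orphan monocarboxylate carrier named after its values were seen, was listed at 0 in both P-IV.II libraries and had 0.152 and 0.168 FPKM in SPM, 1.77 and 1.67 for P-IV.I and 2.17 and 3.75 for PcDC2, with a difference of 1.59 ± 0.16 log2 units (adjusted p = 0.000270). It met the level rule only through dendritic-labelled libraries, and that rule favoured its direction. In PcDC1 it was near 0, at -1.96 log2 units against the mean of PcDC2. Slc16a7, a monocarboxylate carrier and the other most abundant gene of the class, ran from 7.43 to 17.2 FPKM in the 8 replicated libraries, did not pass at -0.16 ± 0.23 log2 units (adjusted p = 0.655), and was 0.0733 FPKM in PcDC1.

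**Figure D3:**
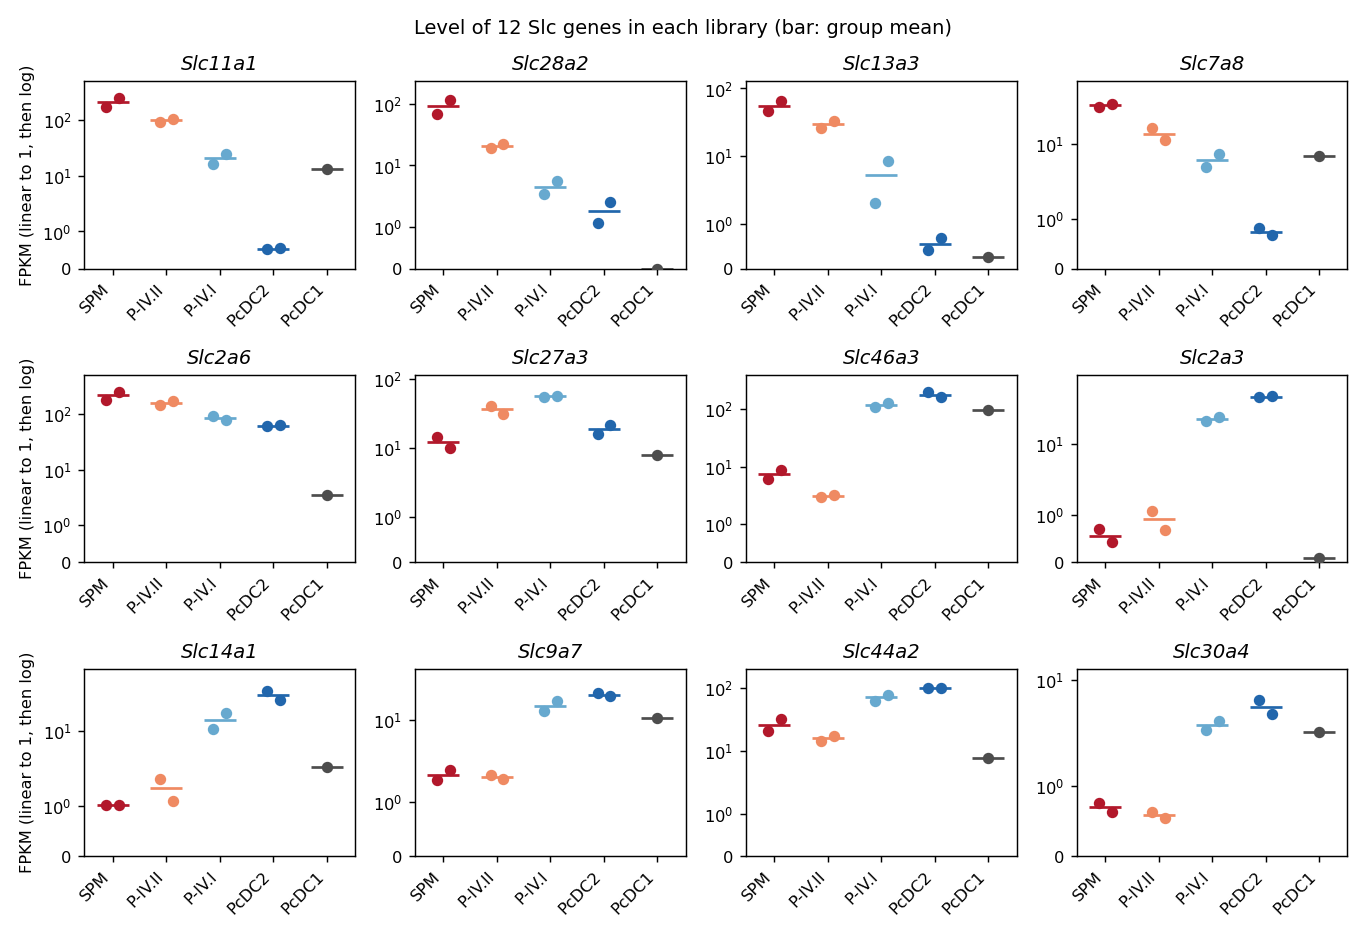
FPKM of 12 Slc genes in each of the 9 libraries, on an axis that is linear up to 1 and logarithmic above; each point is a library and the bar is the group mean. The upper row falls from SPM to PcDC2, the genes from Slc46a3 on rise to P-IV.I and PcDC2, and Slc27a3 is highest in the groups of the CD11c+ CD115+ gate.

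The 250 bases before the RefSeq start site (GRCm38.p6) are shown for the 3 lowest and 2 of the 4 highest dendritic-minus-macrophage differences among carriers that had an entry in the table used, to set the regulatory sequence of genes that move in opposite directions side by side. Of the 167 genes 125 had an entry. The windows lie at chr1:74374953-74375202 (plus strand), chr2:122426185-122426434 (plus), chr2:165473198-165473447 (minus), chr5:147894816-147895065 (minus) and chrX:20291828-20292077 (minus), and each ends at the base before an annotated transcript start, which in 4 of the 5 genes lies inside the outermost gene bounds given here. Capitals mark matches, on either strand, to any of 4 motifs: GAGGAA (the core bound by PU.1), TGANTCA (AP-1), TGCTGAC (a MAF site) and CACGTG (the E-box of the MITF and TFEB family).
Slc11a1: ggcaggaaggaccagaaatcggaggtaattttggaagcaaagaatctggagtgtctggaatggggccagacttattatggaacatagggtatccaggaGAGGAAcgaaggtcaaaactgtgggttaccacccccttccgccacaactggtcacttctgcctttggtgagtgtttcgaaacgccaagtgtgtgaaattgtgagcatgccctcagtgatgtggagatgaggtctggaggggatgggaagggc
Slc28a2: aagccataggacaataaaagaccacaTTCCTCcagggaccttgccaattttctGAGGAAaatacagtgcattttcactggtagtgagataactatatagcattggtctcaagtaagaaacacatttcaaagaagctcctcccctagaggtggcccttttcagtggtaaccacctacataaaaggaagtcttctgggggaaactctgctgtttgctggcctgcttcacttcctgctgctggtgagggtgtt
Slc13a3: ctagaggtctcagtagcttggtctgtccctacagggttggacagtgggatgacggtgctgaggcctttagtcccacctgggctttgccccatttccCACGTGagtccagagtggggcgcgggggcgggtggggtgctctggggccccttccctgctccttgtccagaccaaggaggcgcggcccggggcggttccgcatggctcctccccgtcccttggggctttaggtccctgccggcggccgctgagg
Slc46a3: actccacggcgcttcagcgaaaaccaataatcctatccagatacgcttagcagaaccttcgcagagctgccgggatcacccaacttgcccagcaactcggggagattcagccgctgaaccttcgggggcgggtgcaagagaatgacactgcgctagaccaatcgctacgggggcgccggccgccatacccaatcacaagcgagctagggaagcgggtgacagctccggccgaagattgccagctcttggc
Slc9a7: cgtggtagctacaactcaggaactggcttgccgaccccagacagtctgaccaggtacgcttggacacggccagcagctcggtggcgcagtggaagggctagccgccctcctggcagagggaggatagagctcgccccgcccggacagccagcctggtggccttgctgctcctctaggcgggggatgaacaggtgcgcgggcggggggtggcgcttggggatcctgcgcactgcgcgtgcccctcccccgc
GAGGAA was found once in the Slc11a1 window and on both strands of the Slc28a2 window, CACGTG once in that of Slc13a3, and no motif of the 4 in those of Slc46a3 and Slc9a7. Over all 32851 promoter windows of this length, 23.3% hold GAGGAA, 6.75% TGANTCA, 3.81% TGCTGAC and 6.02% CACGTG. Over the 167 windows of the 125 Slc genes, the shares were 18.6%, 5.39%, 1.20% and 13.8%. A match describes the letters only.

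Amino acid carriers were spread over both directions. Slc7a8 (gene ID 50934, chromosome 14, 54722215 to 54781886), a light chain that exchanges neutral amino acids when paired with Slc3a2, had 30.6 and 34.4 FPKM in SPM and 16.0 and 11.2 for P-IV.II. It had 4.96 and 7.35 for P-IV.I, 0.808 and 0.666 for PcDC2 and 6.97 in PcDC1. The 4 replicated groups were in descending order without overlap, and PcDC1 lay with P-IV.I. The dendritic-minus-macrophage difference was -2.65 ± 0.20 log2 units (adjusted p = 5.68e-05). Slc16a10, a facilitative carrier of aromatic amino acids, was also lower, at -1.90 ± 0.20 log2 units (adjusted p = 0.000266), with 7.60 and 5.70 FPKM in SPM, 4.74 and 2.84 for P-IV.II, then 0.754 and 1.08 for P-IV.I and 0.467 and 0.220 for PcDC2, and it was listed at 0 in PcDC1. Both passed without any single library. Without the macrophage-labelled libraries Slc16a10 would not have met the level rule.

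Slc7a5 is another light chain that pairs with Slc3a2 and imports leucine and other large neutral amino acids. It ran opposite to Slc7a8, with 1.71 and 3.31 FPKM in SPM, 4.49 and 4.20 for P-IV.II, then 8.66 and 16.9 for P-IV.I, 16.8 and 7.46 for PcDC2 and 6.67 in PcDC1. The replicated libraries did not overlap between macrophage and dendritic labels, and the difference was 1.57 ± 0.31 log2 units (adjusted p = 0.00735). Slc38a2, which takes up glutamine and alanine with sodium, had 14.3 and 16.1 FPKM in SPM, 17.9 and 10.0 for P-IV.II, then 42.5 and 38.8 for P-IV.I, 33.9 and 57.6 for PcDC2 and 10.4 in PcDC1, a difference of 1.51 ± 0.24 log2 units (adjusted p = 0.00271) without overlap. Slc38a1, Slc7a6 and Slc15a4, named after their values were seen, were higher by 0.98 ± 0.18 log2 units (adjusted p = 0.00458), 1.04 ± 0.16 log2 units (adjusted p = 0.00221) and 1.06 ± 0.21 log2 units (adjusted p = 0.00777). Slc15a4 is a histidine and peptide carrier of endolysosomes that is needed for signalling of Toll-like receptors there, and its 31.0 and 55.8 FPKM in SPM, 27.5 and 32.0 for P-IV.II, then 72.2 and 62.7 for P-IV.I and 76.3 and 89.3 for PcDC2 made it one of the more abundant carriers. In PcDC1 Slc15a4 lay below every other library, at -2.29 log2 units against the mean of PcDC2. Slc7a6 overlaps Slc7a6os on the opposite strand, and whether counting used the strand is not stated.

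Slc3a2, the heavy chain shared by these light chains, did not pass. It had 51.2 and 46.5 FPKM in SPM, 53.9 and 38.0 for P-IV.II, then 45.5 and 67.5 for P-IV.I, 85.9 and 80.1 for PcDC2 and 60.6 in PcDC1, a difference of 0.52 ± 0.20 log2 units (adjusted p = 0.0835). Slc1a5, which exchanges glutamine and was the other most abundant gene of the class, had 30.4 and 49.1 FPKM in SPM, 46.6 and 69.5 for P-IV.II, then 55.7 and 110 for P-IV.I and 72.6 and 56.3 for PcDC2, with overlap between groups and a difference of 0.58 ± 0.28 log2 units (adjusted p = 0.156). Of 19 tested genes of amino acid use and sensing, 6 were higher and 2 lower, where 18.6% and 10.3% of all genes were. Il4i1, a secreted amino acid oxidase, had 0.794 and 0 FPKM in SPM, 0.488 and 0.855 for P-IV.II, then 17.0 and 8.72 for P-IV.I and 42.1 and 48.5 for PcDC2, and differed by 4.05 ± 0.27 log2 units (adjusted p = 3.89e-05). Sesn2, a leucine sensor, was higher by 2.05 ± 0.23 log2 units (adjusted p = 0.000391), and Arg1, arginase, was lower at -1.87 ± 0.20 log2 units (adjusted p = 0.000326). In PcDC1 Arg1 was listed at 0 and Il4i1 had 4.60 FPKM, while Sesn2 had 3.50, below every other library.

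Sugar carriers held a pair that moved in opposite directions. Slc2a3 (gene ID 20527, chromosome 6, 122727809 to 122802363), a high-affinity glucose importer, had 0.697 and 0.428 FPKM in SPM and 1.13 and 0.680 for P-IV.II. It had 21.0 and 23.5 for P-IV.I and 44.7 and 46.2 for PcDC2, and had 0.103 in PcDC1. The macrophage-labelled and dendritic-labelled replicated libraries did not overlap, PcDC2 lay above P-IV.I, and PcDC1 lay below every other library. The difference was 4.26 ± 0.17 log2 units (adjusted p = 6.00e-06). Without the dendritic-labelled libraries Slc2a3 would not have met the level rule. Slc2a6, a hexose carrier found on lysosomes, was far more abundant in the macrophage-labelled groups than Slc2a3, with 181 and 255 FPKM in SPM, 144 and 169 for P-IV.II, then 91.4 and 80.0 for P-IV.I, 60.3 and 64.6 for PcDC2 and 3.57 in PcDC1. It was lower in the dendritic-labelled groups, at -1.31 ± 0.18 log2 units (adjusted p = 0.00109), without overlap.

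Slc37a1, which exchanges glucose-6-phosphate for phosphate at the endoplasmic reticulum, was higher in the dendritic-labelled groups by 1.33 ± 0.18 log2 units (adjusted p = 0.00127), with 3.25 and 3.71 FPKM in SPM, 3.14 and 2.38 for P-IV.II, then 6.99 and 9.86 for P-IV.I and 9.56 and 11.2 for PcDC2. Slc50a1, a sugar carrier of the Golgi, was the other abundant gene of the class and did not pass, at 0.07 ± 0.24 log2 units (adjusted p = 0.864). Slc2a9, a urate carrier, and Slc5a11, an inositol carrier, were named after their values were seen. Both were lower, at -0.91 ± 0.15 log2 units (adjusted p = 0.00348) and -0.87 ± 0.13 log2 units (adjusted p = 0.00159), from levels of at most 2.36 and 1.19 FPKM. Slc5a11 met the level rule only through macrophage-labelled libraries, and that rule favoured its direction.

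Among lipid carriers, Slc44a2 (gene ID 68682, chromosome 9, 21320719 to 21355028), a choline carrier of the plasma membrane and mitochondria, had 20.6 and 32.5 FPKM in SPM, 14.7 and 17.3 for P-IV.II, then 63.5 and 79.4 for P-IV.I, 102 and 102 for PcDC2 and 7.94 in PcDC1. The replicated groups did not overlap, and PcDC1 was below all other libraries. The dendritic-minus-macrophage difference was 2.01 ± 0.19 log2 units (adjusted p = 0.000189), and it passed without any single library. Its relative Slc44a1 had 9.79 and 21.5 FPKM in SPM, 5.23 and 6.40 for P-IV.II, then 15.9 and 17.8 for P-IV.I, 16.0 and 19.2 for PcDC2 and 0.600 in PcDC1, and the difference of 0.82 ± 0.25 log2 units (adjusted p = 0.0419) was lost without any of 7 of the 8 replicated libraries, all but SPM replicate 2, with an adjusted p of up to 0.134, and under both rescalings.

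Slc27a3 (gene ID 26568, chromosome 3, 90385230 to 90390835), which activates long-chain fatty acids by joining them to coenzyme A, had another pattern. It had 14.5 and 9.86 FPKM in SPM, 41.1 and 31.4 for P-IV.II, then 54.6 and 57.5 for P-IV.I, 16.0 and 21.2 for PcDC2 and 7.95 in PcDC1. All 4 libraries of the CD11c+ CD115+ gate lay above all 5 others. It passed the F test (adjusted p = 0.00388), and neither pairwise difference passed, at 1.51 ± 0.28 log2 units (adjusted p = 0.0504) for P-IV.II minus SPM and 1.55 ± 0.28 log2 units (adjusted p = 0.0599) for P-IV.I minus PcDC2. With median-ratio rescaling the first had adjusted p = 0.0457. With the length trend removed the differences had adjusted p = 0.0411 and adjusted p = 0.0465.

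The mitochondrial carriers were the most abundant class. Slc25a5, which exchanges ADP and ATP, and Slc25a3, which imports phosphate and copper, together took between 12.2% and 25.9% of the Slc FPKM in the replicated libraries and 31.0% in PcDC1. Slc25a5 had 498 and 509 FPKM in SPM, 631 and 847 for P-IV.II, then 436 and 375 for P-IV.I, 325 and 355 for PcDC2 and 780 in PcDC1. Its difference of -0.71 ± 0.18 log2 units (adjusted p = 0.0203) was lost without P-IV.II replicate 2, P-IV.I replicate 2 or either PcDC2 replicate, with an adjusted p of up to 0.0857, and Slc25a3 did not pass at -0.43 ± 0.21 log2 units (adjusted p = 0.162). Slc25a5 and its paralog Slc25a4 have many processed copies in the genome, so their levels are uncertain.

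Of 3 mitochondrial carriers that passed the F test, 2 had a mean of at least 5 FPKM in their highest replicated group. Slc25a25, a calcium-regulated carrier of ATP-magnesium and phosphate, had 8.44 and 9.57 FPKM in SPM, 13.5 and 12.9 for P-IV.II, then 22.1 and 29.0 for P-IV.I, 26.1 and 22.1 for PcDC2 and 6.83 in PcDC1, and differed by 1.11 ± 0.17 log2 units (adjusted p = 0.00217). Slc25a38, which brings glycine into the mitochondrion for heme synthesis, had 9.09 and 7.81 FPKM in SPM, 9.93 and 8.42 for P-IV.II, then 18.0 and 16.5 for P-IV.I, 20.5 and 16.4 for PcDC2 and 51.8 in PcDC1, and differed by 0.94 ± 0.17 log2 units (adjusted p = 0.00431). For both, the macrophage-labelled and dendritic-labelled replicated libraries did not overlap. PcDC1 lay below all of them for Slc25a25 and above all of them for Slc25a38, and the part of the erythroid marker sum of PcDC1, 26.2 FPKM, in the latter was not tested.

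Ion carriers included exchangers of sodium and protons that moved in opposite directions. Slc9a7 (gene ID 236727, chromosome X, 20098851 to 20292035), an exchanger of the trans-Golgi network and endosomes, had 1.85 and 2.48 FPKM in SPM, 2.15 and 1.91 for P-IV.II, then 13.2 and 17.2 for P-IV.I, 21.5 and 19.9 for PcDC2 and 10.6 in PcDC1. No macrophage-labelled library reached 3 FPKM, the groups did not overlap, and the difference was 2.60 ± 0.17 log2 units (adjusted p = 3.89e-05). Slc9a4, an exchanger of the plasma membrane, had 3.10 and 4.40 FPKM in SPM, 3.60 and 4.68 for P-IV.II, then 0.535 and 0.972 for P-IV.I and 0.316 and 0.243 for PcDC2, without overlap, and a difference of -1.72 ± 0.18 log2 units (adjusted p = 0.000260). Both passed without any single library. Slc9a4 met the level rule only through macrophage-labelled libraries, and that rule favoured its direction. Slc9a9, an exchanger of late endosomes and the ion carrier with the highest mean over the 5 groups, was lowest in P-IV.II, with 18.3 and 18.5 FPKM in SPM, 9.70 and 7.71 for P-IV.II, then 16.9 and 19.9 for P-IV.I, 20.0 and 19.8 for PcDC2 and 27.7 in PcDC1. Its difference of 0.56 ± 0.16 log2 units (adjusted p = 0.0341) was lost without any 1 of 7 of the 8 replicated libraries, all but P-IV.II replicate 1, with an adjusted p of up to 0.118, under both rescalings and with the length trend removed.

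Slc12a9, a relative of the cation and chloride cotransporters, was higher by 1.06 ± 0.17 log2 units (adjusted p = 0.00298), with 8.53 and 8.79 FPKM in SPM, 9.75 and 6.62 for P-IV.II, then 19.5 and 19.3 for P-IV.I and 17.3 and 18.0 for PcDC2. Its relative Slc12a4, the potassium and chloride cotransporter, had a higher mean than Slc9a9 in SPM, P-IV.II and P-IV.I, spread widely between replicates, with 17.6 and 40.0 FPKM in SPM, 14.7 and 31.0 for P-IV.II, then 12.7 and 29.9 for P-IV.I and 15.7 and 14.2 for PcDC2, and did not pass at -0.46 ± 0.37 log2 units (adjusted p = 0.390).

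The highest difference of any Slc gene was in the vitamin class, which holds the relatives of the folate carriers. Slc46a3 (gene ID 71706, chromosome 5, 147875897 to 147894861) is a lysosomal membrane carrier whose human counterpart exports breakdown products of antibody-drug conjugates. It had 6.15 and 8.78 FPKM in SPM, 3.02 and 3.21 for P-IV.II, then 109 and 127 for P-IV.I and 197 and 160 for PcDC2. In PcDC1 it had 96.5, so that all 5 dendritic-labelled libraries lay above all 4 macrophage-labelled ones. The difference over the replicated groups was 4.63 ± 0.18 log2 units (adjusted p = 6.00e-06), and it ranged from 4.49 to 4.89 over the alternatives tried. The riboflavin carrier Slc52a3 was lower at -0.84 ± 0.18 log2 units (adjusted p = 0.0116), and was lost without PcDC2 replicate 1 (adjusted p = 0.0529).

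Slc14a1 (gene ID 108052, chromosome 18, 78100091 to 78142119) encodes the urea channel of red cells and kidney vessels. It had 1.05 and 1.06 FPKM in SPM, 2.30 and 1.19 for P-IV.II, then 10.7 and 17.8 for P-IV.I, 34.4 and 26.5 for PcDC2 and 3.31 in PcDC1, without overlap between the replicated macrophage-labelled and dendritic-labelled libraries, and a difference of 3.20 ± 0.23 log2 units (adjusted p = 5.27e-05). Slc33a1, the acetyl-coenzyme A carrier of the endoplasmic reticulum and the only other gene outside the named classes, did not pass at -0.17 ± 0.18 log2 units (adjusted p = 0.532). The nucleotide sugar class was assigned by the Slc35 symbol, a family with carriers that feed glycosylation in the Golgi. The cargo of each member was not assessed. In that class Slc35c2, a fucose-related carrier, had 41.1 and 52.9 FPKM in SPM, 70.2 and 74.5 for P-IV.II, then 120 and 119 for P-IV.I, 132 and 125 for PcDC2 and 195 in PcDC1, and was higher by 1.08 ± 0.16 log2 units (adjusted p = 0.00169). Slc35f6 was lower at -0.77 ± 0.16 log2 units (adjusted p = 0.0100) and was lost without PcDC2 replicate 2 (adjusted p = 0.0523), and Slc35a4, the other most abundant gene, did not pass at -0.17 ± 0.26 log2 units (adjusted p = 0.661).

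Of the 4 genes that are not carriers, Slc9a3r2, a scaffold that binds exchangers and receptors at the membrane, had 57.3 and 95.2 FPKM in SPM, 17.9 and 34.2 for P-IV.II, then 6.05 and 6.17 for P-IV.I, 1.57 and 2.41 for PcDC2 and 16.0 in PcDC1. Its replicated groups did not overlap, and the difference was -3.26 ± 0.26 log2 units (adjusted p = 7.89e-05). The related scaffold Slc9a3r1 lay between 74.0 and 97.4 FPKM in the 8 replicated libraries and did not pass, at -0.17 ± 0.15 log2 units (adjusted p = 0.449). Of 22 tested carriers with symbols of other kinds, 2 were higher and 5 were lower, where 18.6% and 10.3% of all genes were. Spns3, a relative of the sphingosine phosphate exporter, differed by 2.13 ± 0.25 log2 units (adjusted p = 0.000566), and Mfsd7a by -1.33 ± 0.16 log2 units (adjusted p = 0.000523).

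The comparison was also made in pairs of groups. Between the CD11c+ CD115- and CD11c- CD115+ gates, PcDC2 minus SPM, 25 Slc genes were higher and 20 lower, against 11.2% and 8.46% of all genes and 19.7% in either direction. Within the CD11c+ CD115+ gate, P-IV.I against P-IV.II and again the first minus the second, 18 were higher and 8 lower, against 6.51% and 3.11% of all genes and 9.61% in either direction. At an unadjusted p under 0.05 the first pair had 67 Slc genes, with 33.1% of all genes, and the second had 50, with 27.1%. These comparisons share no library, only the estimate of spread. In both, 23 genes passed, 15 as higher and 8 as lower, with the same direction in each, which is 51.1% of the first list and 88.5% of the second. Over all genes tested, 814 passed in both, or 39.3% and 80.4%.

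The largest differences of the higher genes passed in both pairs. Slc46a3 differed by 4.42 ± 0.25 log2 units (adjusted p = 2.47e-05) between PcDC2 and SPM and by 4.85 ± 0.25 log2 units (adjusted p = 0.000362) for P-IV.I against P-IV.II. Slc2a3 differed by 4.90 ± 0.24 log2 units (adjusted p = 1.88e-05) and 3.62 ± 0.24 log2 units (adjusted p = 0.000381), and Slc14a1 by 3.93 ± 0.33 log2 units (adjusted p = 0.000132) and 2.47 ± 0.33 log2 units (adjusted p = 0.00339). For Slc9a7 the values were 2.79 ± 0.25 log2 units (adjusted p = 0.000177) and 2.41 ± 0.25 log2 units (adjusted p = 0.00166), for Slc44a2 1.94 ± 0.27 log2 units (adjusted p = 0.00187) and 2.09 ± 0.27 log2 units (adjusted p = 0.00338), and for Slc30a4 1.94 ± 0.23 log2 units (adjusted p = 0.000753) and 1.58 ± 0.23 log2 units (adjusted p = 0.00538). Among the lower genes Slc11a1 differed by -7.08 ± 0.29 log2 units (adjusted p = 1.29e-05) and -2.26 ± 0.29 log2 units (adjusted p = 0.00317). These 7 genes passed in both pairs without any single library.

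Some other differences for P-IV.I against P-IV.II did not pass once a library was left out, which leaves a group with 1 library. Over all alternatives tried, the estimates of the 4 genes that follow kept their sign. They ran from -3.34 to -1.66 for Slc13a3, -2.34 to -1.70 for Slc28a2, -2.35 to -1.37 for Slc9a4 and -2.31 to -1.41 for Slc9a3r2. Slc13a3 differed there by -2.50 ± 0.50 log2 units (adjusted p = 0.0191), lost without P-IV.II replicate 1, P-IV.II replicate 2 or P-IV.I replicate 1 (adjusted p up to 0.101). Slc28a2 differed by -1.99 ± 0.37 log2 units (adjusted p = 0.0156), lost without P-IV.II replicate 2 or P-IV.I replicate 1 (adjusted p up to 0.104), and Slc9a4 by -1.56 ± 0.25 log2 units (adjusted p = 0.00775), lost without the same libraries (adjusted p up to 0.0617). Slc9a3r2 differed by -1.86 ± 0.37 log2 units (adjusted p = 0.0194), lost without P-IV.II replicate 2, P-IV.I replicate 1 or P-IV.I replicate 2 (adjusted p up to 0.110). Between PcDC2 and SPM these 4 genes differed by -5.17 ± 0.50 log2 units, -5.00 ± 0.37 log2 units, -1.88 ± 0.25 log2 units and -4.66 ± 0.37 log2 units, and passed without any single library.

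Leaving out a library of a pair lowered most counts of Slc genes, and the counts over all genes tested fell as well. For PcDC2 minus SPM, 16 and 15 genes were higher without SPM replicates 1 and 2, and 14 and 13 without PcDC2 replicates 1 and 2, while 13 were lower without SPM replicate 2 and 12 without PcDC2 replicate 1. For P-IV.I against P-IV.II, 11 and 6 were higher and 4 and 2 lower without P-IV.II replicates 1 and 2, and 8 and 7 were higher and 1 and 4 lower without P-IV.I replicates 1 and 2. Median-ratio rescaling gave 22 higher and 22 lower for the first pair and 13 and 11 for the second, and it moved the median of all genes from 0.13 to 0.02 and from 0.19 to 0.04. Quantile normalization gave 21 and 23 for the first pair and 10 and 10 for the second. With the length trend removed the counts were 26 and 31, and 11 and 12. Over all genes median-ratio rescaling gave 1016 and 1031 for the first pair and 499 and 445 for the second. Quantile normalization gave 1047 and 1050, and 464 and 448, over all genes. Removing the length trend gave 1178 and 1289, and 531 and 476. The Spearman correlation of the difference with transcript length, across genes of the same libraries, was -0.02 for PcDC2 minus SPM and 0.24 for P-IV.I against P-IV.II over the Slc genes, and 0.04 and 0.41 over all genes with a length.

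**Figure D4:**
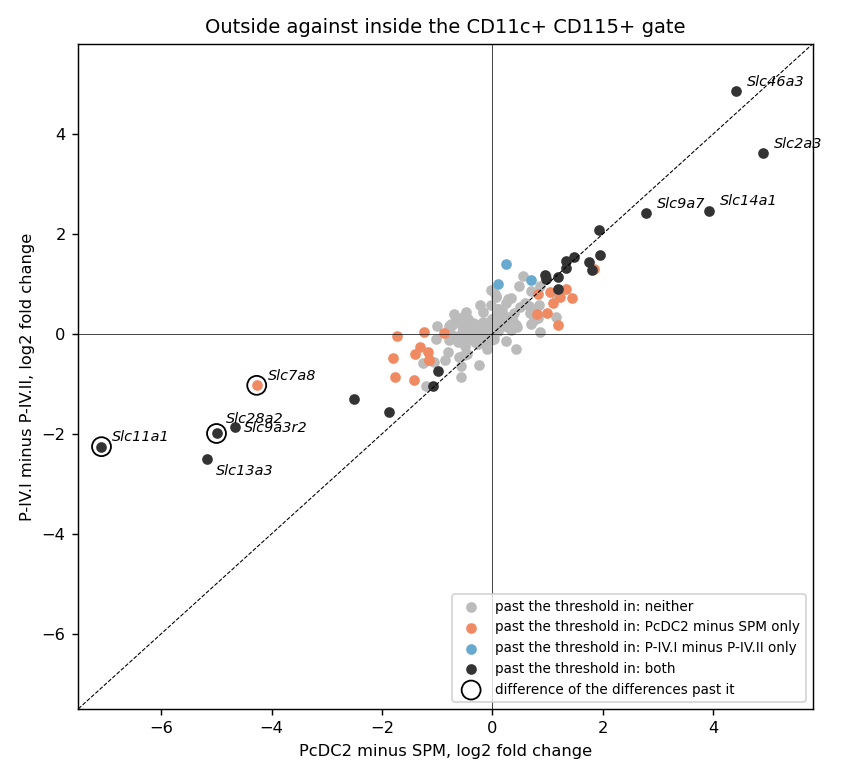
Log2 fold change of the 167 Slc genes for PcDC2 minus SPM (horizontal axis) and P-IV.I against P-IV.II (vertical axis); colour gives the comparison in which a gene passed, circles mark the 3 genes whose differences differed, and the dashed line is equality. The 23 genes that passed in both lie in the upper right or lower left, and Slc11a1, Slc7a8 and Slc28a2 lie above the line.

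Whether the 2 differences were of equal size was tested as the difference inside the CD11c+ CD115+ gate minus that between the outer gates. Of the Slc genes 3 passed as higher and 0 as lower, against 1.01% and 0.105% of all genes. At an unadjusted p under 0.05 limma gave 21 Slc genes in either direction, or 12.6%, and 10.2% of all genes. For Slc11a1 the difference of differences was 4.82 ± 0.41 log2 units (adjusted p = 0.00609), lower by less inside the gate, and it passed without any single library (adjusted p up to 0.0436). Slc7a8 differed by -4.27 ± 0.28 log2 units (adjusted p = 5.04e-05) outside the gate and -1.03 ± 0.28 log2 units (adjusted p = 0.0586) inside it. Inside the gate Slc7a8 did pass with median-ratio rescaling, with quantile normalization and with the length trend removed. Its difference of differences was 3.24 ± 0.40 log2 units (adjusted p = 0.0108), lost without P-IV.I replicate 2, PcDC2 replicate 1 or PcDC2 replicate 2 (adjusted p up to 0.0663). For Slc28a2 it was 3.01 ± 0.53 log2 units (adjusted p = 0.0457), lost without any 1 of the 8 replicated libraries (adjusted p up to 0.180), with a pseudocount of 0.1 and with no filter. For Slc2a3 and Slc14a1, which are further apart outside the gate than inside it, the test did not pass, at -1.28 ± 0.34 log2 units (adjusted p = 0.179) and -1.46 ± 0.46 log2 units (adjusted p = 0.281).

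For P-IV.II minus SPM, which compares macrophage-labelled cells with and without CD11c, 0 of the 167 Slc genes passed in limma, against 0.238% of all genes as higher, 0.903% as lower and 1.14% in either direction. At an unadjusted p under 0.05 there were 27, against 11.0% of all genes. The genes nearest to passing were Slc28a2 at -2.04 ± 0.37 log2 units (adjusted p = 0.0504) and Slc27a3, given above. Slc28a2 passed with the length trend removed (adjusted p = 0.0399) and with quantile normalization (adjusted p = 0.0482). The Spearman correlation of this difference with transcript length, across genes, was -0.40 over the Slc genes and -0.47 over all genes.

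For P-IV.I minus PcDC2, which compares dendritic-labelled cells with and without CD115, 2 Slc genes were higher and 0 were lower in limma, against 0.732% of all genes in either direction. At an unadjusted p under 0.05 there were 16, or 9.58%, against 7.01% of all genes. Slc11a1 was higher by 3.77 ± 0.29 log2 units (adjusted p = 0.00109) and passed without any single library. Slc7a8 was higher by 2.02 ± 0.28 log2 units (adjusted p = 0.0201), lost without either replicate of P-IV.I or PcDC2 (adjusted p up to 0.198) and with no filter. The 9 macrophage markers also had a higher sum in P-IV.I than in PcDC2, at 295 and 421 against 46.6 and 67.4 FPKM, and their part in these differences was not tested. Of these sums, Csf1r, the gene of the sorting marker CD115, gave 157 and 246 against 5.08 and 6.86 FPKM. The sort selects for that difference. Timd4 went the other way, at 12.1 and 9.54 against 18.7 and 23.2 FPKM, and Folr2 and Lyve1 were under 1 FPKM in both groups.

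PcDC1 had 1 library, so its values are given with no test. The level rule leaves out genes that reach 1 FPKM in PcDC1 alone, for the Slc genes and for all genes tested alike. Against the mean of PcDC2, 41 of the 167 Slc genes were higher, 125 lower and 1 was equal. By at least 1 on the log2 scale, 17 were higher and 69 lower, where 18.1% and 30.5% of all genes were. The median difference was -0.76 for the Slc genes and -0.36 for all genes. Mitochondrial carriers had 9 genes higher and 9 lower by that measure with a median of -0.11, while ion carriers had 0 higher and 11 lower, and nucleoside carriers 0 higher and 4 lower.

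Among genes at 5 FPKM or more, the 4 highest differences were those of Slc11a1 (3.22), Slc22a18 (3.04), Slc9a3r2 (2.52) and Slc7a8 (2.20). Slc22a18, an imprinted carrier of organic cations, had 23.7 FPKM in PcDC1 and at most 3.75 in any other library. The 4 lowest were those of Slc2a3 (-5.40), Slc2a6 (-3.79), Slc41a1 (-3.76) and Slc44a1 (-3.53). Slc2a6, Slc41a1 and Slc44a1 were lower in PcDC1 than in any of the other 8 libraries, and so was Slc2a3.

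The difference also moved with transcript length. Its Spearman correlation with the length of the longest annotated transcript was -0.37 across the 167 Slc genes and -0.44 across all genes with a length, all values coming from the same 3 libraries. Slc genes with a transcript of at most 3281 bases had a median difference of -0.43, with 28 of 84 higher in PcDC1. Those with a longer transcript had -1.03, with 13 of 83 higher. The part of transcript length in the PcDC1 values was not tested.

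**Figure D5:**
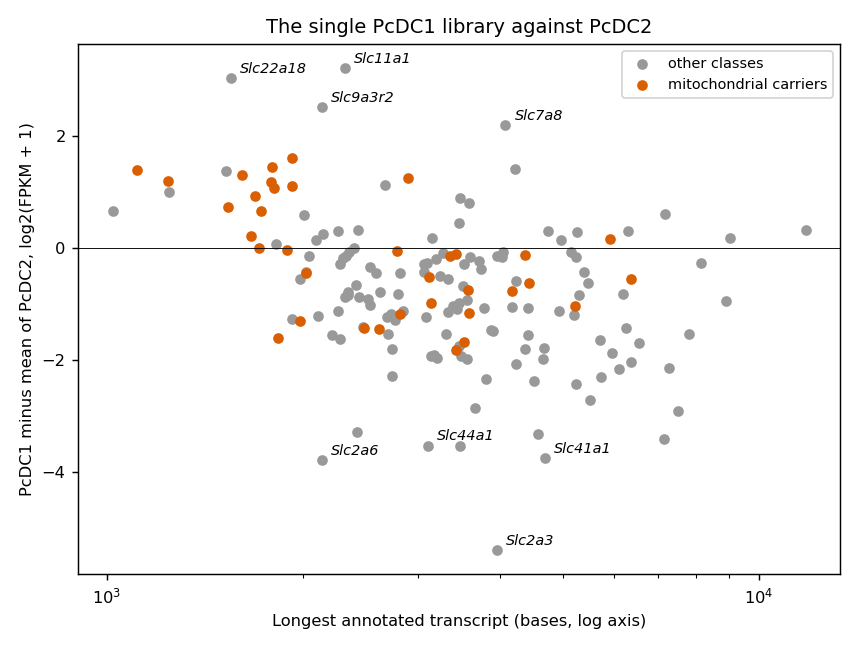
PcDC1 minus the mean of PcDC2 on log2(FPKM + 1), against the length of the longest annotated transcript in bases on a log axis, for the 167 Slc genes, with mitochondrial carriers in orange; PcDC1 is 1 library. Points above 0 are more frequent at short lengths, and Slc2a3 is the lowest and Slc11a1 the highest point.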

How the data were processed

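RNA of sorted peritoneal cells was measured in 9 libraries of 5 groups, with cDNA made by a SMARTer low-input kit and sequenced on an Illumina NovaSeq, per the labels' protocols. The authors deposited 1 table of FPKM values, made, per the submitters' processing notes, with the build mm10 and with Cufflinks, StringTie 1.3.4d, HISAT2 2.1.0 and bcl2fastq 1.8.4, in roles not stated there. The table is called normalized, and neither a step beyond FPKM nor the use of the strand in counting is given in the sources used here. Columns were matched to samples by the column name each description gives. Of 643 genes under 0.1 FPKM in both SPM libraries, 4.98% had the same ratio within 1%, so no whole-read steps were found, the depth is unknown, and no interval that needs counts is given.

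Genes with at least 1 FPKM in at least 2 libraries, 10526 in all, were transformed as log2(FPKM + 1) and fitted by group in limma 3.58.1 (R 4.3.3) with lmFit, contrasts.fit and eBayes with a variance trend, over all 9 libraries, with PcDC1 as a group of 1. The fit had 4 residual degrees of freedom and a prior of 4.02. Tests are two-sided, adjusted by Benjamini-Hochberg over all genes within each comparison, at a threshold of 0.05. The comparisons were 4 pairs of groups, the pooled dendritic-labelled against macrophage-labelled groups, the difference between 2 of the pairs, and an F test. The fit was tested on simulated data for PcDC2 minus SPM. Of 100 genes given a log2 change of 1, 5 passed, and of 100 given a change of 2, 81 passed. Of 10326 unchanged genes 3 passed. Fewer genes were changed there than passed for this pair in the data, which makes the adjustment stricter, so these shares do not carry over directly. The changed genes were also drawn only from the more abundant ones, so the shares do not cover genes near 1 FPKM. A gene that did not pass is not thereby shown to be equal between groups.

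Classes follow the Slc family of each symbol, except for some genes that were classed one by one, such as Slc16a10, Slc43a3 and Slc17a9. Genes are named by a rule: per class the 2 most abundant and up to 4 that passed the F test with a mean of at least 5 FPKM in the highest group, per comparison up to 5 each way, and for PcDC1 the 4 highest and 4 lowest. The members, classes, lists and rule were chosen with earlier results of these data known. Coordinates and promoter sequences are from RefSeq, GRCm38.p6, the assembly behind mm10, and all 167 genes had coordinates.

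Alternatives were a pseudocount of 0.1, no filter, median-ratio rescaling, quantile normalization, a block on the replicate number (without PcDC1), and leaving out each library. After the data were seen, removal of each library's trend with transcript length and a crossed block were added.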

Additional observations from a re-analysis of the deposited data

Results flagged for a closer look

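For 3 Slc genes the fold change inside the CD11c+ CD115+ gate (P-IV.I against P-IV.II) differed from that between the outer gates (PcDC2 minus SPM), by the contrast of both in limma. For Slc11a1 the difference was -7.08 ± 0.29 log2 units for PcDC2 minus SPM and -2.26 ± 0.29 log2 units inside the gate, and these differed by 4.82 ± 0.41 log2 units (adjusted p = 0.00609). Over the alternatives the size for Slc11a1 ran from 4.53 to 6.04 and the adjusted p from 0.00147 to 0.0436. For Slc7a8 the difference was -4.27 ± 0.28 log2 units for PcDC2 minus SPM and -1.03 ± 0.28 log2 units inside the gate, and these differed by 3.24 ± 0.40 log2 units (adjusted p = 0.0108). Over the alternatives the size for Slc7a8 ran from 2.95 to 4.15 and the adjusted p from 0.00924 to 0.0663. For Slc28a2 the difference was -5.00 ± 0.37 log2 units for PcDC2 minus SPM and -1.99 ± 0.37 log2 units inside the gate, and these differed by 3.01 ± 0.53 log2 units (adjusted p = 0.0457). Over the alternatives the size for Slc28a2 ran from 2.61 to 3.40 and the adjusted p from 0.00658 to 0.180. Slc11a1 passed under every alternative tried, Slc7a8 was lost without P-IV.I replicate 2 or either PcDC2 replicate, and Slc28a2 was lost without any 1 of the 8 replicated libraries. The sum of 9 macrophage markers, given as the lower and the higher library, was 1591 and 1931 FPKM for P-IV.II, then 295 and 421 for P-IV.I, 5162 and 7575 for SPM and 46.6 and 67.4 for PcDC2. The sum moved with these genes, and its part in the result was not tested. It holds Csf1r, the gene of the sorting marker CD115, on which SPM and PcDC2 were separated.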

How the results depend on the processing

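Of 80 named calls 49 kept their side of the threshold under every alternative and 0 changed direction. Counts that moved by more than 1.5 times, or from or to 0, were as follows. With the length trend removed, PcDC2 minus SPM had 31 lower genes against 20, dendritic minus macrophage 35 lower against 23, P-IV.I against P-IV.II 11 higher against 18, and P-IV.II minus SPM 1 higher and 1 lower against 0 and 0. Over all genes these counts were 1289 against 891, 1599 against 1082, 531 against 685, and 36 and 118 against 25 and 95. Quantile normalization gave 10 higher genes for P-IV.I against P-IV.II and 1 lower for P-IV.II minus SPM, and median-ratio rescaling 1 higher for P-IV.II minus SPM. With no filter P-IV.I against P-IV.II had 5 lower genes against 8, and P-IV.I minus PcDC2 had 1 higher against 2. Leaving out each library gave 13 to 24 higher and 12 to 21 lower genes for PcDC2 minus SPM, 6 to 18 higher and 1 to 8 lower for P-IV.I against P-IV.II, 1 to 2 higher for P-IV.I minus PcDC2, 14 to 22 lower for dendritic minus macrophage, and 1 to 3 higher for the difference of differences. A group left with 1 library was assumed to vary like the others.

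Same-numbered deviations correlated at 0.71 between SPM and P-IV.II, 0.55 between SPM and P-IV.I and 0.34 between P-IV.II and P-IV.I. With PcDC2 they correlated at 0.04 (SPM), 0.05 (P-IV.II) and -0.28 (P-IV.I). The labels do not say what a number shares, so the pairing was not used. With a replicate block, fitted without PcDC1, the F test passed 53 genes, P-IV.II minus SPM had 1 higher (Slc27a3, adjusted p = 0.0352) and 2 lower (Slc28a2, adjusted p = 0.00854, and Slc9a3r2, adjusted p = 0.0322), Slc27a3 also passed for P-IV.I minus PcDC2 (adjusted p = 0.0414), and the difference of differences had 5 higher. With the PcDC2 numbers crossed, the block gave 3 higher genes for P-IV.I minus PcDC2. The causes were not tested. Genes outside the Slc families were not refitted under the alternatives. Unknown depth limits what can be said of genes near 1 FPKM.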
